A study of Mus musculus with 4 samples.

Results

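The 9 genes followed here carry the insulin signal in the hepatocyte or make glucose at its far end. They are *Insr*, *Irs1*, *Irs2*, *Pik3r1*, *Akt1*, *Akt2*, *Foxo1*, *Pck1* and *G6pc*. They were chosen by symbol from 22367 protein-coding genes of the mm9 annotation, all 9 were found in it, and each was compared with the lamina-associated domains (LADs) of WT and *Tm7sf2*-KO hepatocytes. The selection rule used symbols alone, but the genes were picked with earlier results of these data known.

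Insulin binds the insulin receptor, a tyrosine kinase that phosphorylates the insulin receptor substrates. These recruit PI3 kinase, the lipid it makes activates Akt, and Akt phosphorylates FoxO1 so that it leaves the nucleus. In the fasted liver FoxO1 stays nuclear and drives the gluconeogenic genes, and in the fed liver insulin silences them through this chain. The nuclear envelope (NE) is lined by the lamina, and genes beside it are often, though not always, silent.

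LADs were mapped by DamID, in which a Dam methylase fused to LaminB1 methylates the adenine of GATC sites close to the lamina. Primary hepatocytes came from WT mice and from Tm7sf2-/- mice, which lack the NE sterol reductase Tm7sf2 (NET47), at 12 to 16 weeks of age. Both genotypes were transduced for 24 h with a lentivirus that carried either Dam-LaminB1 or unfused Dam, kept in medium with insulin, dexamethasone and EGF, and harvested 60 h after transduction. Each of the 4 resulting libraries, 1 per construct and genotype, holds pooled DNA of 4 mice, so no value below carries an error between animals and no test between the genotypes was possible. The deletion is in every cell of the animal, so what it does to hepatocytes and what reaches them from other tissues cannot be told apart.

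The lists hold 8107 LADs for WT and 16076 for KO, which cover 1472 and 1490 Mb with median lengths of 40.8 and 38.8 kb. The KO list thus holds more LADs over nearly the same total length, and every distance given below was measured against these unequal lists. Differential regions (DRs) are stretches of at least 10 kb that only 1 of the lists contains, 7787 of them in WT and 8208 in KO. The lists hold positions alone, so the read depth and the signal behind any LAD are unknown from them. The paper reports fewer usable reads and lower genome coverage for KO than for WT. Genotype and sequencing depth therefore cannot be told apart in any difference below. The lists cannot check the deletion either. *Tm7sf2* itself (chromosome 19, 6062821 to 6068373) overlapped no LAD in either genotype.

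A gene whose span overlapped a KO-only DR by at least 1 base was called IP (internal in WT, peripheral in KO). The reverse was called PI, an overlap with both kinds of DR AMB, a gene in LADs of both genotypes PP, and the remainder II. Over all coding genes 17.1% were IP, 5.43% PI, 2.96% AMB, 17.9% PP and 56.6% II. Of the 9 genes, *Irs1* was IP and the other 8 were II, with 0 PI, 0 AMB and 0 PP. A share of 1 in 9 for IP is near the background, so the count says nothing particular about these genes.

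No gene of the 9 was touched by a WT LAD, against 30.4% of all coding genes. Only *Irs1* was touched by a KO LAD, against 41.7% of all coding genes. None of their 87 exons lay in a LAD of either genotype. Over all coding genes 18.6% of 205360 exons touched a WT LAD and 24.7% a KO LAD.

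The DNA around the *Irs1* and *Akt2* LADs is shown because these 2 genes have a KO LAD closest to their starts. DpnI cuts at methylated GATC, so the positions of these sites set where a LAD border can be drawn. The 40 bases around each border of the 3 KO LADs are given in the direction of transcription (mm9, *Irs1* on the minus strand and *Akt2* on the plus strand), with GATC in capitals.
*Irs1* upstream LAD, 5′ border, chr1:82308092-82308131: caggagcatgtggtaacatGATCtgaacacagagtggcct
*Irs1* upstream LAD, 3′ border, chr1:82291397-82291436: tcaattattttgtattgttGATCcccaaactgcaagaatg
*Irs1* intronic LAD, 5′ border, chr1:82279350-82279389: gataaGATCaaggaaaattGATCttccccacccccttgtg
*Irs1* intronic LAD, 3′ border, chr1:82265159-82265198: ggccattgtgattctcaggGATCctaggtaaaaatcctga
*Akt2* LAD, 5′ border, chr7:28363271-28363310: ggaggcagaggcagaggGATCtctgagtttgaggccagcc
*Akt2* LAD, 3′ border, chr7:28376009-28376048: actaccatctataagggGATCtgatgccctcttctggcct
All 6 borders had a GATC site at their center. Over the whole lists a GATC within 4 bases was found at 99.2% of 16214 WT borders and 99.6% of 32152 KO borders.

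*Irs1* encodes a docking protein that passes the signal from the receptor to PI3 kinase. It lies on chromosome 1 (82229676 to 82287991, minus strand, 58.3 kb) and has 2 exons, with the coding sequence in the exon at its start. In WT no base of the gene was in a LAD, and in KO 24.3% of it was. The KO LAD in the gene (chr1:82265179-82279369) is 14.2 kb long and lies wholly in the intron, where it takes 28.9% of 49.2 kb. It ends 3982 bases short of exon 1 and lies 31.0 kb from exon 2.

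Another KO LAD of 16.7 kb (chr1:82291417-82308111) lies upstream of *Irs1*, between it and its neighbor *Rhbdd1*. It begins 3425 bases before the transcription start. No base of these 2 LADs, 30886 bases together, was in a WT LAD. They are separated by 12047 bases that hold the start and all of exon 1, so the start of *Irs1* was in no LAD in KO but had one on each side, 3.42 kb upstream and 8.62 kb downstream. In WT the nearest LAD was 25.1 kb past the 3′ end of the gene and 83.4 kb from the start.

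The LADs beside *Irs1* are short. Across the KO list the median length was 38.8 kb, and across the KO-only DRs it was 18.05 kb. The intronic LAD held 35 GATC sites (2.47 per kb), and the upstream LAD held 29 (1.74 per kb), beside a median of 2.33 per kb over all KO-only DRs. Their GC shares were 40.6% and 39.6%, against a median of 42.97%. The gap between them held 22 GATC sites in 12047 bases (1.83 per kb) at a GC share of 51.5%.

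The 250 bases before the *Irs1* start (chr1:82287992-82288241, minus strand, read toward the gene) are shown because the gap in the KO LADs lies over them.
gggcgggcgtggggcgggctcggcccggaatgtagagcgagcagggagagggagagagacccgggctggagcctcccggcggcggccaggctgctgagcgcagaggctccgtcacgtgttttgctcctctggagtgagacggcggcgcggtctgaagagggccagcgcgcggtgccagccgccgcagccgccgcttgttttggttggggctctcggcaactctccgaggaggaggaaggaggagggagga
This window held 0 GATC sites at a GC share of 71.2%. The GATC sites on either side of the *Irs1* start lay 554 bases apart. Of all coding genes 40.2% had a GATC in the same window, and 4 of the 9 genes did (*Akt2*, *Foxo1*, *Pck1* and *G6pc*).

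The study followed *Irs1* by microscopy with a pair of fosmid probes, whose hybridization signals are not analysed here. The probe over the 5′ part of the gene (WI1-0392I10, 43.4 kb) had 55.0% of its length in KO LADs. The probe farther upstream (WI1-1588J17, 38.4 kb) had 27.2%. Neither touched a WT LAD, and the nearest WT LADs were 53.1 and 93.1 kb away.

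Among all 3826 IP genes *Irs1* was not at an extreme. Its share of span in KO-only DRs exceeded that of 31.4% of them, and their median was 42.8%. An IP call with no exon in a KO-only DR, as in *Irs1*, was the less common form, found in 282 IP genes (7.37%). A start outside the KO LADs was found in 1322 (34.6%), and 2961 (77.4%) were touched by no WT LAD. The genes with the most similar LAD shares of span and of the surrounding 100 kb in both genotypes were *Sult4a1* and *Zfp292*, at distances of 0.90 and 1.12 percentage points over 4 values. *Sult4a1* was outside the WT LADs and had 23.5% of its span in KO LADs, and *Zfp292* was outside the WT LADs with 23.4% in KO LADs.

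**Figure D1:**
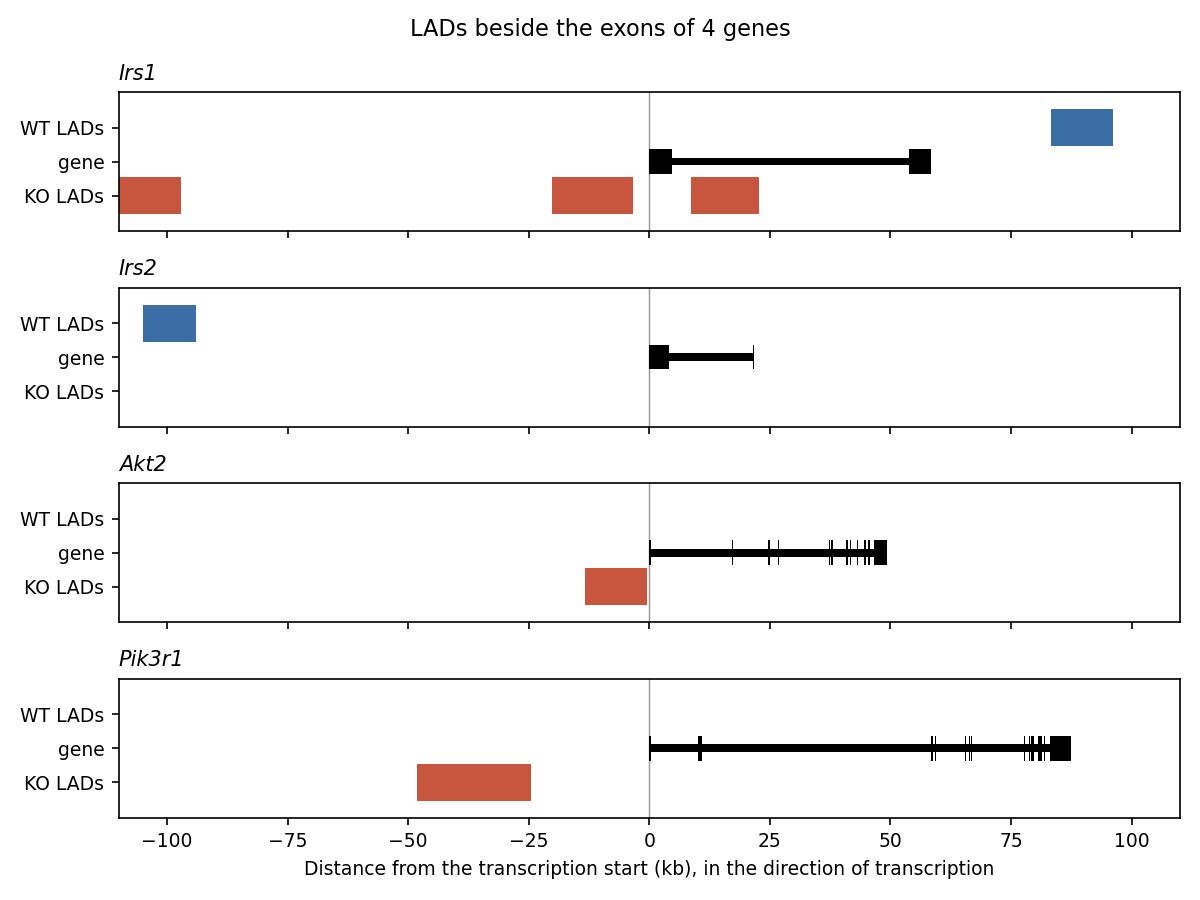
LADs of WT (blue) and *Tm7sf2*-KO (red) beside the exons (black blocks) and introns (thin black line) of *Irs1*, *Irs2*, *Akt2* and *Pik3r1*, against the distance from the transcription start in kb. The KO LADs stand 3.42 kb before and 8.62 kb after the *Irs1* start and 542 bases before the *Akt2* start, and no LAD covers an exon.

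*Irs2* encodes the other main substrate of the receptor in liver, and like *Irs1* it has 2 exons. It lies on chromosome 8 (10986980 to 11008458, minus strand, 21.5 kb). It was II. Upstream of it, 94.0 kb led to a WT LAD and 127 kb to a KO LAD, and no LAD was closer, so *Irs2* was the only gene of the 9 that was farther from a LAD in KO. A WT LAD of 11.04 kb (chr8:11102409-11113452) was missing from the KO list, and a KO LAD of 10.9 kb (chr8:11135469-11146342) lay beyond it. The LAD share of 1 Mb centered on *Irs2* was 8.68% in WT and 8.90% in KO, and that of 100 kb was 0% in both. The same windows at *Irs1* were 38.2% and 40.1% for 1 Mb, and 0% and 30.9% for 100 kb. The 2 substrate genes therefore lay in different surroundings in both genotypes, and near the gene itself the lists differed between genotypes at *Irs1* alone.

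*Insr* encodes the receptor. It lies near the start of chromosome 8 (3150922 to 3279617, minus strand, 128.7 kb, 21 exons) and was II. The nearest LADs were past its 3′ end, with 95.3 kb between in WT and 62.6 kb in KO. These are a WT LAD of 18.2 kb and a KO LAD of 34.6 kb, which share 1861 bases. From the start, which lies at the other end of the gene, they were 224 and 191 kb away. The LAD share of its 1 Mb window was 5.54% in WT and 6.63% in KO, but 28.5% of that window is unsequenced in the assembly, so these shares are too low.

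*Pik3r1* encodes the p85 alpha regulatory subunit of PI3 kinase. It lies on chromosome 13 (102450716 to 102538172, minus strand, 87.5 kb) and was II. Its nearest LAD changed side between the lists. In WT it was 74.0 kb past the 3′ end, and in KO it was a KO LAD of 23.7 kb (chr13:102562624-102586309) that begins 24.5 kb upstream of the start, where WT had none. From the start the distances were 161 kb in WT and 24.5 kb in KO.

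The surroundings of *Pik3r1* went the other way. The LAD share of its 1 Mb window was 49.6% in WT and 18.1% in KO, a fall by 31.5 percentage points and the only fall among the 9 genes. Within 500 kb of its start there were 7 WT LADs with 506 kb in all and 9 KO LADs with 205 kb. The longest WT LAD that reached this stretch was 386 kb and the longest KO LAD 58.5 kb. *Pik3r1* was thus nearer to a LAD in KO, in a neighborhood that held less LAD.

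*Akt1* and *Akt2* encode the kinases below PI3 kinase, and Akt2 is the form best known for insulin's effect on glucose. *Akt1* (chromosome 12, 113892032 to 113913095, minus strand) was II and had no WT LAD within 500 kb of its start and 1 KO LAD, of 10.6 kb. Its nearest LAD was at 557 kb in WT, upstream, and at 445 kb in KO, past the 3′ end.

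*Akt2* (chromosome 7, 28376571 to 28425845, plus strand, 49.3 kb, 14 exons) was II, but it came within 542 bases of a call. A KO LAD of 12.7 kb (chr7:28363291-28376028) ended 542 bases before its start, and no base of this LAD was in a WT LAD. In WT the nearest LAD was 536 kb away. Within 500 kb of the start there were 5 KO LADs with 91.9 kb in all and 0 WT LADs. The KO LAD at *Akt2* held 36 GATC sites (2.83 per kb) at a GC share of 47.2%. It reached into the upstream neighbor *2310022A10Rik*, which was IP with 13.3% of its span in the KO-only DR.

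The 250 bases before the *Akt2* start (chr7:28376321-28376570, plus strand) lie between the end of that LAD and the gene and hold 1 GATC, in capitals.
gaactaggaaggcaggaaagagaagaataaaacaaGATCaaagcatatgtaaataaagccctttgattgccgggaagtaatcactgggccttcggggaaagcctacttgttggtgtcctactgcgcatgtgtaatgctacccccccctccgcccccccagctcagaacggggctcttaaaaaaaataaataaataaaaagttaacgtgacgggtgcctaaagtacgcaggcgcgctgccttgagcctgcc
The 542 bases from the end of the LAD to the *Akt2* start held 4 GATC sites in all, and the sites on either side of the start lay 1243 bases apart.

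*Foxo1* encodes the transcription factor that Akt excludes from the nucleus. It lies on chromosome 3 (52072259 to 52154031, plus strand, 81.8 kb, 3 exons) and was II. In WT 683 kb separated its 3′ end from the nearest LAD, and in KO a LAD lay 60.2 kb upstream of the start. No WT LAD lay within 500 kb of the start, whereas 7 KO LADs with 148 kb in all did. The LAD share of its 1 Mb window was 0% in WT and 12.3% in KO, the largest rise in points among the 9 genes. The upstream neighbor *Maml3*, a coactivator of Notch signaling, was IP with 20.9% of its span in KO-only DRs.

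*Pck1* and *G6pc* encode PEPCK and the catalytic subunit of glucose-6-phosphatase, which catalyze an early step and the last step of gluconeogenesis. Both genes are targets of FoxO1, and both were II. *Pck1* (chromosome 2, 172978549 to 172984774, plus strand, 6.23 kb) lay 191 kb from the nearest WT LAD and 145 kb from the nearest KO LAD, both past its 3′ end. The LAD share of its 1 Mb window was 7.02% in WT and 15.3% in KO. *G6pc* (chromosome 11, 101228875 to 101239217, plus strand, 10.3 kb) was the farthest of the 9 from any LAD, with 1127 kb between in WT and 555 kb in KO. Its 1 Mb window held no LAD in either genotype.

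**Figure D2:**
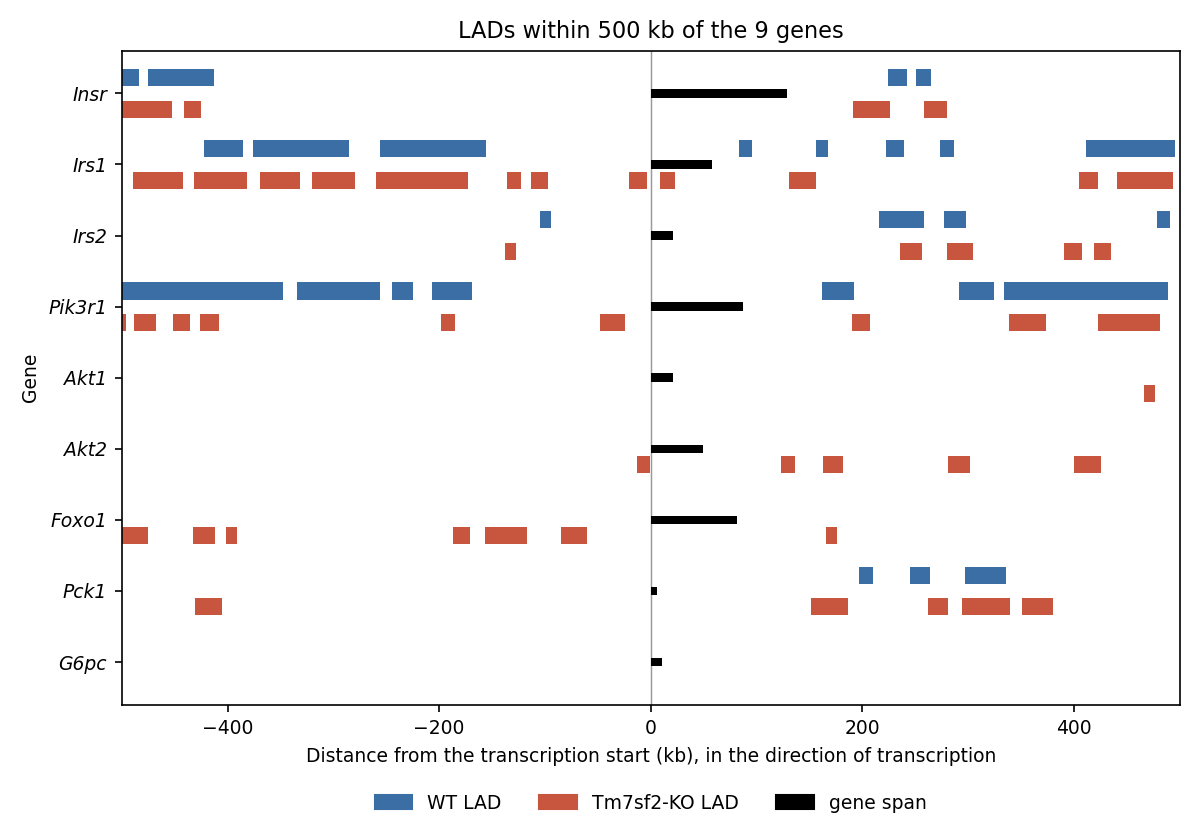
LADs of WT (blue, above each gene) and *Tm7sf2*-KO (red, below) within 500 kb of the transcription start of each gene, with the gene span in black and the distance in kb along the direction of transcription. *Akt1*, *Akt2* and *Foxo1* have LADs in KO only (1, 5 and 7), *G6pc* has none, and at *Pik3r1* long WT LADs face short KO LADs.

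In WT the order from the nearest LAD outward was *Irs1*, *Pik3r1*, *Irs2*, *Insr*, *Pck1*, *Akt2*, *Akt1*, *Foxo1* and *G6pc*. In KO it was *Irs1*, *Akt2*, *Pik3r1*, *Foxo1*, *Insr*, *Irs2*, *Pck1*, *Akt1* and *G6pc*. With 1 library pair per genotype it cannot be said which neighbors in these orders differ beyond their spread. *Akt2* and *Foxo1* came closer by 536 and 623 kb, *G6pc* by 573 kb and *Akt1* by 112 kb. *Pik3r1*, *Pck1*, *Insr* and *Irs1* came closer by 25.1 to 49.5 kb, and at *Irs2* the same difference, WT minus KO, was -33.1 kb, so it was farther.

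Of the 8 genes touched by no LAD in either genotype, 7 were nearer to a LAD in KO. Of the 12518 coding genes touched by no LAD, 83.6% were nearer to one in KO, so 7 of 8 is near the background. The median distance of the 8 genes was 364 kb in WT and 94.8 kb in KO, against 401 and 119 kb for those 12518 genes. When only LADs of at least 50 kb were kept, 3614 in WT and 6761 in KO, the direction turned for most of them. Only *Pck1* and *G6pc* were then nearer in KO, *G6pc* by 2.59 kb, and the share over all genes clear of such LADs was 48.8%. The approach of *Akt2*, *Foxo1*, *Pik3r1*, *Insr*, *Akt1* and *Irs1* to LADs in KO thus rested on KO LADs shorter than 50 kb.

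**Figure D3:**
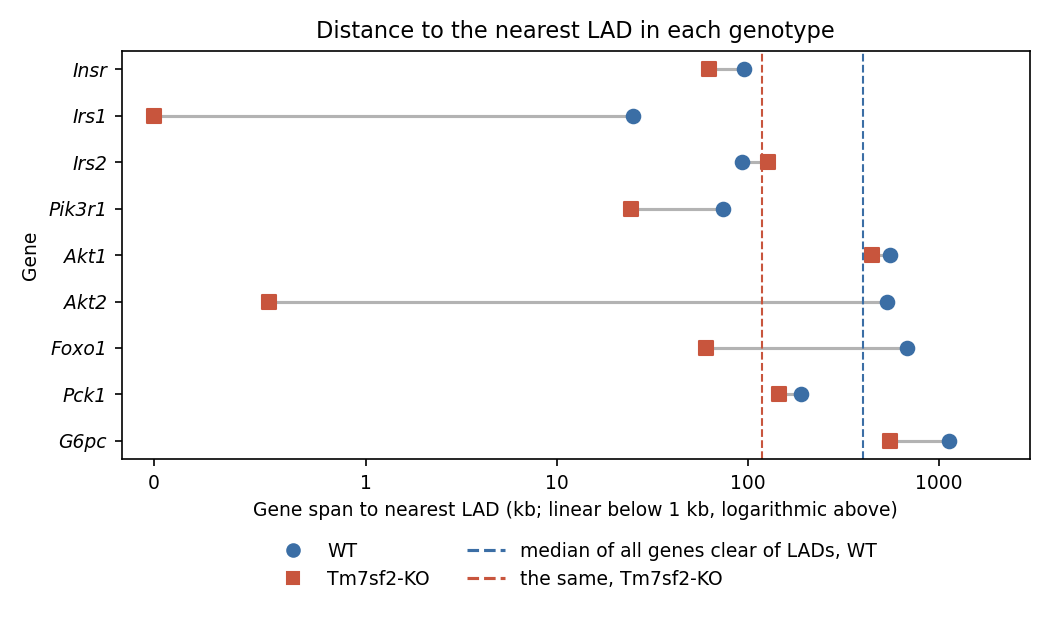
Distance in kb from each gene span to the nearest LAD in WT (blue circles) and *Tm7sf2*-KO (red squares), on an axis that is linear below 1 kb and logarithmic above, with dashed lines at the medians of the 12518 coding genes clear of LADs (401 kb in WT, 119 kb in KO). *Irs1* is at 0 in KO, *Akt2* at 542 bases, and *Irs2* is the only gene whose KO point lies to the right.

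**Figure D4:**
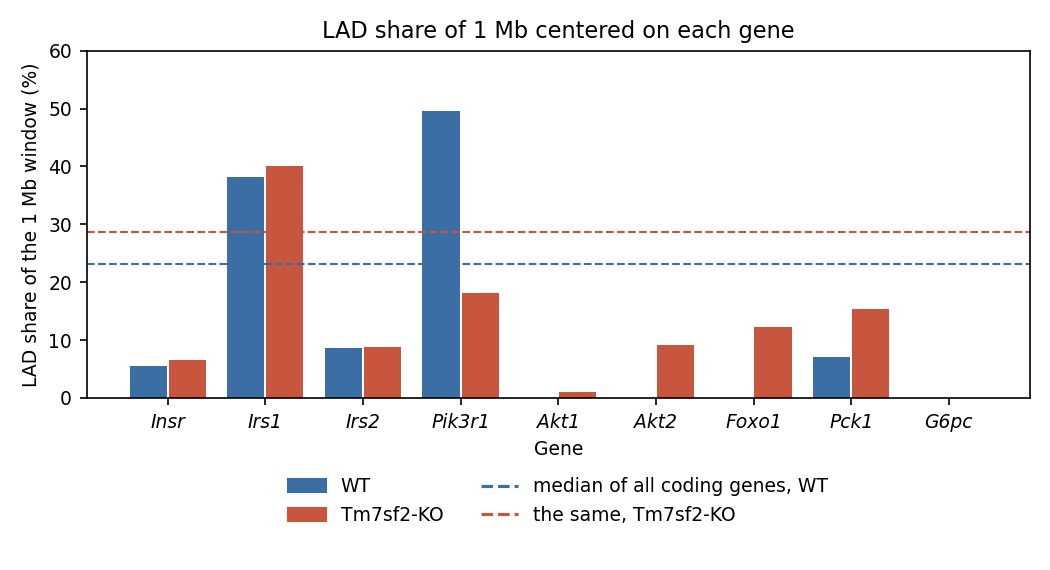
LAD share (%) of 1 Mb centered on each gene in WT (blue) and *Tm7sf2*-KO (red), with dashed lines at the medians over all coding genes (23.2% in WT, 28.8% in KO). *Irs1* is above both medians, *Pik3r1* drops from 49.6% to 18.1%, and *G6pc* is at 0% in both.

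The median LAD share of the 1 Mb around the 9 genes was 5.54% in WT and 9.19% in KO, beside 23.2% and 28.8% over all coding genes. The WT median is the value of *Insr*, which is too low because its window is partly unsequenced. *Irs1* (38.2% in WT, 40.1% in KO) and, in WT, *Pik3r1* (49.6%) lay above the medians over all coding genes, and the other genes lay below. The share was higher in KO for 7 of the 9, lower for *Pik3r1* and 0% in both for *G6pc*. Over all coding genes it was higher in KO for 14080 and lower for 6570. In the 100 kb centered on each gene, only *Irs1* (30.9%) and *Akt2* (12.7%) had any LAD in KO, and none had any in WT. The medians over all coding genes for this window were 0% in WT and 13.1% in KO. It held no LAD in either genotype for 7 of the 9 genes and for 9395 of all 22367 coding genes. LADs beyond this window are not counted in it, and at *Insr* the window lies wholly inside the gene.

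The genes had little else in common. Their median GC share was 46.1% (42.8% to 57.7%) beside 45.6% over all coding genes, and they held a median of 2.33 GATC sites per kb beside 2.41. The number of other coding genes in the surrounding 1 Mb ran from 1 at *Pik3r1* to 38 at *G6pc*. *Irs1* and *Irs2* had 6 each, *Foxo1* 2, *Pck1* 9, *Insr* 17, *Akt1* 25 and *Akt2* 34, against a median of 16. The 9 spans had a median of 49.3 kb against 15.4 kb over all coding genes. Over all coding genes, IP genes had a median span of 35.2 kb and II genes of 14.1 kb.

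Of the 17 nearest coding genes on either side of the 9, 4 were IP, 1 was PP and 12 were II, beside 17.1%, 17.9% and 56.6% of all coding genes. The IP share is near the background. The IP neighbors were *Rhbdd1* beside *Irs1*, *Maml3* beside *Foxo1*, *2310022A10Rik* beside *Akt2* and *Cd180* beside *Pik3r1*. *Rhbdd1*, a rhomboid protease gene 25.0 kb upstream of *Irs1*, had 22.1% of its span in KO LADs and was 1.73 kb from the nearest WT LAD. *Cd180*, a gene 945 kb from *Pik3r1* for a surface protein of B cells, was already 51.6% in LADs in WT and 59.1% in KO. The PP neighbor was *9430031J16Rik*, 891 kb past the 3′ end of *Irs1*.

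The other neighbors were *A430078G23Rik* at *Insr*, *3930402G23Rik* and *Col4a1* at *Irs2*, *Gm10257* at *Pik3r1*, *Siva1* and *Zbtb42* at *Akt1*, *Ttc9b* at *Akt2*, *Gm10293* at *Foxo1*, *Ctcfl* and *Zbp1* at *Pck1*, and *Aoc3* and *Aarsd1* at *G6pc*. All 12 were II. The annotation also places *Gm9747* within *Irs1* and *Gm11016* within *Pik3r1*, and both were II.

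A wider list of 94 genes, the 9 included, sets them among the other genes of insulin signaling and glucose handling. It held 14 IP (14.9%), 1 PI (1.06%), 2 AMB (2.13%), 2 PP (2.13%) and 75 II (79.8%) genes. Set beside the shares over all coding genes given above, the IP and AMB shares are close to them, PI and PP are lower, and II is higher. Without the 9 genes the list held 13 IP genes of 85 (15.3%) and 1 PI.

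By role, 4 of the 9 receptor substrates and adaptors were IP, beside 17.1% of all coding genes, and whether this group differs from other genes was not tested. Besides *Irs1* these were *Sh2b2* (41.5% of the span in KO-only DRs), an adaptor of the receptor kinase, *Irs4* (37.3%), a substrate little used in liver, and *Gab1* (36.1%), a docking protein also used by growth factor receptors. *Irs4* on the X chromosome was already 62.7% in LADs in WT and wholly in one in KO, and *Sh2b2* and *Gab1* were touched by no WT LAD. Unlike in *Irs1*, DRs in these genes reached exons, 7 of 9 in *Sh2b2*, 5 of 10 in *Gab1* and 1 of 2 in *Irs4*.

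The brakes on the pathway held further IP genes. By role, 2 of 6 receptor brakes, 1 of 3 lipid phosphatases and 3 of 9 Akt regulators were IP, and the others were II. The IP share over all coding genes was 17.1%, and these small groups were not tested. *Grb10* (15.6%), an inhibitor of the receptor, was IP, although 30.8% of it was in LADs in WT. *Grb14* (11.3%), of the same adaptor family, was IP and touched by no WT LAD. *Inppl1* (53.7%), which encodes the lipid phosphatase SHIP2, had 18 of 29 exons in the DR. *Phlpp1* (30.5%) and *Phlpp2* (15.5%), phosphatases that remove an activating phosphate from Akt, and *Trib2* (42.5%), of the family of pseudokinases that bind Akt, were also IP. *Trib2* was already 57.5% in LADs in WT and wholly in LADs in KO, whereas *Phlpp1* and *Phlpp2* were touched by no WT LAD.

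*Igf1r*, which encodes a receptor related to that of insulin, was AMB. It had 5.01% of its 274 kb in WT-only and 9.39% in KO-only DRs. All 6 PI3 kinase genes and all 4 *Foxo* genes of the list were II, beside 56.6% of all coding genes, and these small groups were not tested.

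Among the cofactors of fasting, *Creb1* had the largest share of the list in KO-only DRs, 79.8% of its 71.7 kb and 7 of 9 exons. It encodes the cAMP-responsive factor that turns on gluconeogenic genes. *Sirt1* (24.1%), a deacetylase that acts on FoxO1, was IP as well. *Ppargc1a*, which encodes the coactivator PGC-1 alpha, was the only PI gene, with 42.2% of its span in WT-only DRs. It was in LADs over 62.0% of its span in WT and 28.1% in KO, its start was in a LAD in WT, and in KO it was 31.2 kb from the nearest. In the glucagon branch *Prkacb* (14.9%), a catalytic subunit of protein kinase A, was IP. Of the 9 cofactors, 2 were IP, 1 was PI and 6 were II. Of the 5 genes of the glucagon branch, 1 was IP and 4 were II. The shares over all coding genes were 17.1% for IP, 5.43% for PI and 56.6% for II, and these small groups were not tested.

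Of the enzymes, transporters and glycogen genes only *Gbe1* overlapped a DR. Of the 8 gluconeogenic genes 7 were II, and *Fbp2*, the muscle form of fructose bisphosphatase, was PP (47.1% in WT, 46.2% in KO). The 4 glucose transport genes and the 7 glycolytic genes were all II, a class that holds 56.6% of all coding genes. These groups are small, and whether they differ from other genes was not tested. Of the 10 glycogen genes 8 were II, *Gys2*, the liver glycogen synthase, was PP (41.97% in WT, 37.5% in KO), and *Gbe1*, the branching enzyme, was AMB (10.9% in WT-only and 9.78% in KO-only DRs). The 1 called gene not named here was IP, with the smallest share of span in DRs.

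Span length moved with these calls too. The 16 other genes of the list that were IP, PI or AMB had a median span of 95.8 kb, and the other genes that were PP or II had 29.7 kb. The part of length in the calls was not tested. Of the 13 other IP genes of the list, 6 had their start in a KO LAD. Among these, the start of *Grb10* was in a WT LAD as well. Over all coding genes, 1322 of 3826 IP genes (34.6%) had their start outside the KO LADs.

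**Figure D5:**
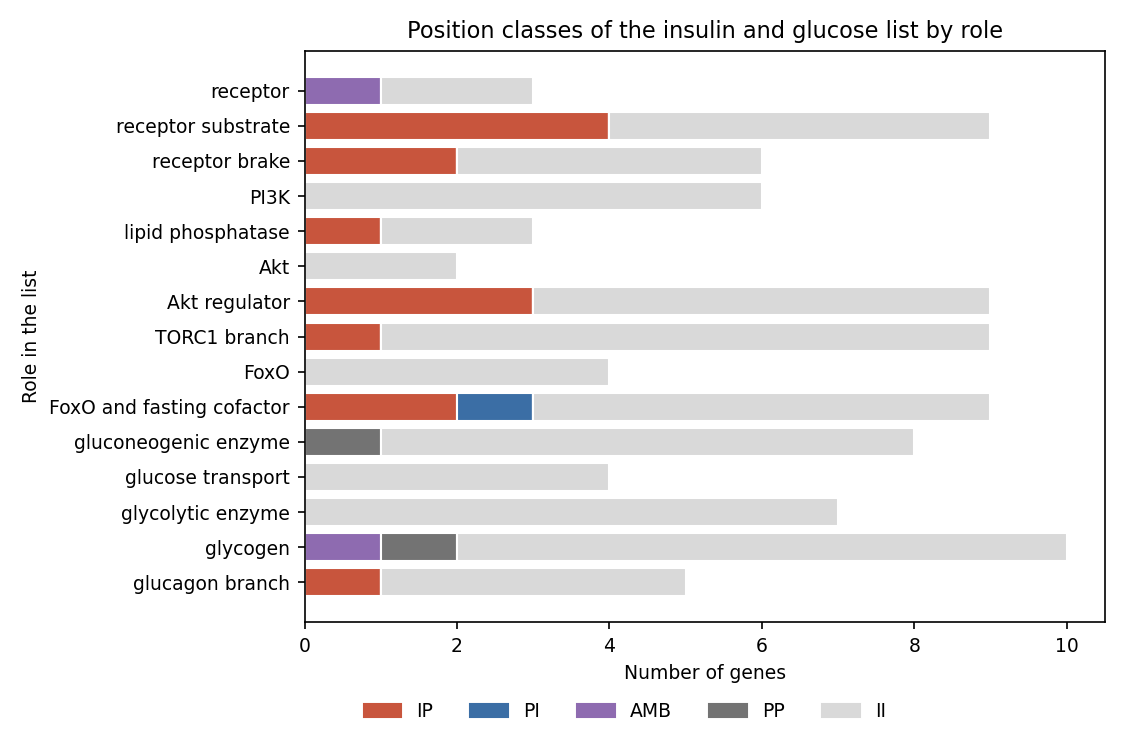
Number of genes in each position class (IP red, PI blue, AMB violet, PP dark gray, II light gray) for each role in the list of 94 genes. The list holds 14 IP genes of 94. The receptor, PI3 kinase, Akt, FoxO, gluconeogenic, glucose transport, glycolytic and glycogen roles hold none. No role was tested against other genes.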

How the data were processed

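DamID was performed by the authors on primary hepatocytes, with 1 Dam-LaminB1 and 1 Dam only library per genotype. The authors mapped the reads to mm9, took the log2 ratio of the constructs per *DpnI* fragment, called LADs with DNAcopy at default settings and subtracted one LAD list from the other to obtain DRs. The submitters' processing notes list BWA and limma. The deposited files hold start and end positions only, with no score. Repeating the subtraction gave all 7787 and 8208 DRs with identical borders.

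Gene spans, and exons of the transcript with the most exonic bases, were taken from the NCBIM37 (mm9) GENCODE annotation of 21 chromosomes. Overlaps, distances and windows were computed in Python 3.11.15 and tested on simulated data (0 errors in 1200 distances and 1200 classes). Sequences were read from the NCBIM37 genome. Figures used matplotlib 3.10.9.

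The 9 genes, the wider list and the rules were chosen with earlier results of these data known. The text names the 9 genes, their nearest coding gene on each side, the 2 genes most like any of the 9 called IP, PI or AMB (Euclidean distance over the LAD shares of span and of 100 kb in both genotypes), *Tm7sf2*, and up to 15 other called genes of the list with the largest shares of span in DRs. With 1 library per construct and genotype no test was made. Some genes are not reported here. Alternatives were other overlap rules, DR lengths, joined LADs and minimum LAD lengths.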

Additional observations from a re-analysis of the deposited data

How the results depend on the processing

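The single IP call, *Irs1*, depended on the rule. It was kept when 10% of the span had to lie in a DR, when differences of any length counted, and when LADs were joined across gaps of up to 10 or 50 kb. Among the 9, 0 genes were IP when 50% of the span was required, by the transcription start only and by exons only. The number was also 0 with differences of at least 20 kb and with LADs of at least 20 kb. In this order, these rules called 7.54%, 11.99%, 16.7%, 11.1% and 13.4% of all coding genes IP, against 17.1% as reported. At such shares a count of 0 in 9 says nothing particular about these genes. The number was 2 (*Irs1* and *Akt2*) for 100 kb centered on the gene, a rule that called 27.1% of all coding genes IP. The number of PI genes was 0 under every alternative. In the list of 94 genes, 14 IP genes became 5 by the transcription start only and 8 with differences of at least 20 kb. Over all coding genes, 3826 IP genes became 2681 and 2486 under the same rules. When 10% of the span was required, 1 PI gene of the list became 2, and 1215 PI genes of all coding genes became 1115. Whether the list differs from all coding genes in these changes was not tested.

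Of the 9 genes 8 were nearer to a LAD in KO, and 2 with LADs of at least 50 kb. With that minimum the distance in WT minus that in KO was -39.6 kb at *Insr*, -16.6 kb at *Irs1*, -89.1 kb at *Pik3r1*, -48.9 kb at *Akt1*, -459 kb at *Akt2* and -37.2 kb at *Foxo1*, all opposite in sign to the distances from all LADs. With LADs of at least 20 kb the sign changed at *Akt1* alone (-2.81 kb). The cause was not tested. Leaving out a library was not possible with 1 per construct and genotype, and no paired analysis was possible because the labels give no replicates.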
